A study of Mus musculus with 4 samples.

Results

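Gamma-delta T-like cells in mouse MC38 tumors were taken as the 10x barcodes with more than 500 genes that held at least 1 unique molecular identifier (UMI, a count of 1 captured RNA molecule) of Cd3d, Cd3e or Cd3g and at least 1 of Trdc, and 0 UMIs of Cd8a, Cd8b1, Cd4, Foxp3, Ncr1, C1qa and Hmga2. The members were thus chosen by measured UMIs of these genes, and values of the gate genes below are descriptions. The gate found 179 members among 31143 barcodes over 4 libraries. The WT tumors gave 46 with IgG and 35 with anti-PD1 and the A159V tumors 38 and 60, and sets of 4 values below follow this order. All tumors grew under the skin of C57BL/6 mice from MC38, a mouse colon adenocarcinoma cell line. WT tumors came from the parental cells and A159V tumors from cells edited by CRISPR to carry RAC1 A159V on both alleles, so the variant was in the tumor cells and the T cells of every group were those of the host. The edited line is 1 clone, and its effect cannot be told apart from that of the clone. Mice received an IgG isotype control or an antibody against PD-1, an inhibitory receptor of T cells. The dissociated tumors were split into CD45-positive and CD45-negative cells with beads and remixed before capture, so a share of all barcodes was set partly by the remixing. Each group was 1 library, nothing in the sources used here says how many animals it holds, and no difference between groups was tested.

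Gamma-delta T cells carry an antigen receptor of a gamma and a delta chain in place of the alpha and beta chains of CD4 and CD8 T cells, and most need no classical MHC molecule to recognise a target. In the mouse thymus they are set into a branch that makes interferon gamma and carries natural killer receptors, or into a branch that makes IL-17 and depends on Sox13, Blk and, for some, PLZF (Zbtb16). Cells that pair the gamma segment Tcrg-V6 with the delta segment Trdv4 arise in fetal life, settle in skin, lung, uterus and tumors, and belong to the IL-17 branch. In transplanted tumors the IL-17 branch is known for drawing in neutrophils and the interferon branch for killing tumor cells.

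The 4 libraries held 54402632 to 125227747 UMIs, and 432 to 590 barcodes per library did not pass 500 genes. The members held 201087, 191491, 120497 and 185554 UMIs in sum, with medians of 2692.5, 4014, 2421 and 2602 UMIs a cell. A single cell gave 22.5%, 23.4%, 14.4% and 6.51% of the members' UMIs in its library. All 4 of these cells were predicted doublets (2 cells in 1 droplet), as were 15 of the 179 members in all. Any pair of libraries shared 13 to 22 barcodes, and no barcode was a member in both libraries of a pair. The summed level of 7 fibroblast genes was 159.1, 10695, 191 and 86.2 CPM (UMIs of a gene per 1000000 UMIs of the summed cells) in members and 64.0, 9062, 757 and 59.0 CPM in CD8 T cells, so WT anti-PD1 stood apart in both. The macrophage genes summed to 587, 162, 266 and 1229 CPM in members against 7505 to 11795 CPM in macrophages. The 6 neutrophil genes summed to 0 to 16.2 CPM with Cxcr2, Retnlg and Mmp8 at 0, and all 5 red cell genes were at 0. The 7 B cell genes summed to 73.1 to 124 CPM with Ms4a1 at 0, mostly from Ighm (43.1 to 108 CPM, and 53.4 to 92.1 CPM in NK cells). The 5 tumor cell genes summed to 244, 0, 290.5 and 80.8 CPM against 410 to 2124 CPM in tumor cells. Krt8 and Krt18 were at 0, and Rhox5 gave 239, 0, 266 and 70.1 CPM.

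The receptor genes that the gate did not use were the check of the label. The gamma chain ends in a constant region, and the mouse genome holds 4 such genes on chromosome 13 (GRCm38). The first 100 bases of their first coding exon, read from the annotated genome, are shown for their likeness. Capitals mark bases that differ from Tcrg-C1.
Tcrg-C1 (chr13:19214103-19217024, + strand): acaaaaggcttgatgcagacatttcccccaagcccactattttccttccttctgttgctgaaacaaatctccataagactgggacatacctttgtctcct
Tcrg-C2 (chr13:19304649-19307551, − strand): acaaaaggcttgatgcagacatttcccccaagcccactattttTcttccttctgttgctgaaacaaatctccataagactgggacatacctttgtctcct
Tcrg-C3 (chr13:19260884-19263528, + strand): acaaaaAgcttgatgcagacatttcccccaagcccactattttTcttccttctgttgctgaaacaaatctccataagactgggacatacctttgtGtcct
Tcrg-C4 (chr13:19344558-19352756, + strand): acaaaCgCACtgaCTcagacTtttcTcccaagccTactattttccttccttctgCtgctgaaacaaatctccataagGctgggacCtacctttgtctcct
Within these bases Tcrg-C2 differed from Tcrg-C1 at 1 position, Tcrg-C3 at 3 and Tcrg-C4 at 12. The 3′ ends of the genes were not compared, so these bases do not say how well 3′ reads can be given to each copy. That was not tested, and the level of each single copy is taken as uncertain and their sum as the firmer value.

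A UMI of any Tcrg-C gene was present in 73.9%, 74.3%, 55.3% and 70.0% of members, with exact 95% intervals of 58.9 to 85.7, 56.7 to 87.5, 38.3 to 71.4 and 56.8 to 81.2. These intervals, and all others below, cover counting error only. The share for any Tcrg-C was 9.33%, 7.01%, 26.3% and 5.53% in CD8 T cells, 6.04%, 8.26%, 4.23% and 1.83% in NK cells, and at most 0.187% in macrophages, a class that should lack these genes. In 1564 cells that met the same gate except for having 0 Trdc UMIs it was 11.7%, 16.3%, 8.35% and 10.1%. The members' lowest library therefore lay above the highest library of every other class, and the CD8 T cells of A159V IgG came closest. Trac, the constant gene of the alpha chain, was found in 4.35%, 11.4%, 7.89% and 11.7% of members and in 71.4% to 86.7% of CD8 T cells. The members overlapped with NK cells in Trac, which had it in 2.28% to 8.73% of cells. The beta constant genes were common in members. Trbc1 or Trbc2 was in 73.3% of members with 1 Trdc UMI and in 77.6% of those with more. In the cells with 0 Trdc UMIs that share was 61.6%.

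**Figure D1:**
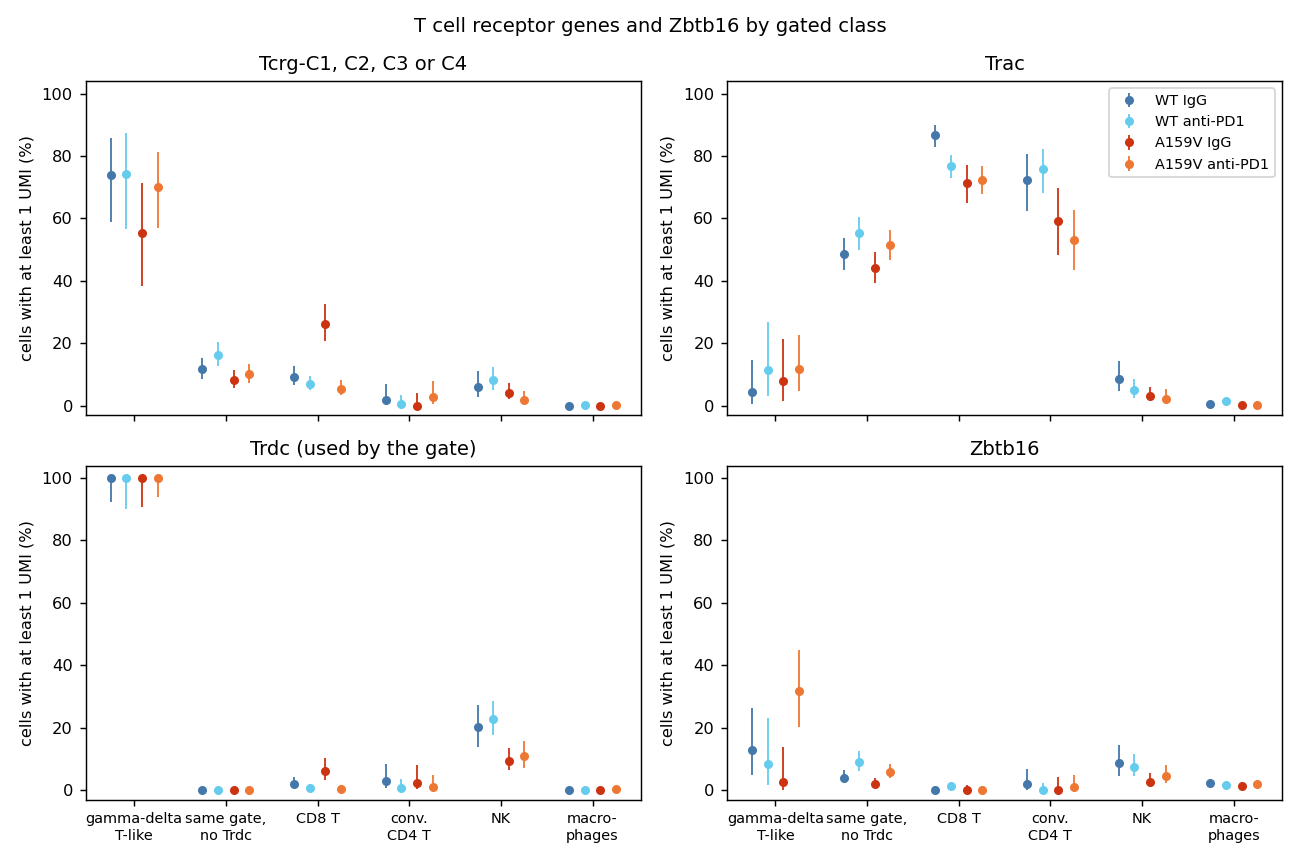
Share of cells (%, y axis) with at least 1 UMI of the gamma constant genes Tcrg-C1 to Tcrg-C4, of Trac, of Trdc and of Zbtb16, by cell class (x axis) and library (color), with exact 95% intervals as bars. The members stand above the other classes for the gamma constant genes in all 4 libraries and below the CD8 and CD4 T cells for Trac; Trdc is 100% in members because the gate used it.

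Members at the edge of the gate were looked at next, as a description. The 45 members with exactly 1 Trdc UMI held a Tcrg-C UMI in 60% of cells and Trac in 13.3%, against 71.6% and 7.46% in the 134 members with more Trdc. Just outside, the 1564 cells with 0 Trdc UMIs held a Tcrg-C UMI in 11.4% and Trac in 49.8%. A further 113 cells had Trdc but no CD3 UMI, and these held a Tcrg-C UMI in 7.96% and the NK receptor gene Klrb1c in 50.4% of cells. The gate also left out 38 cells with Trdc, CD3 and Ncr1 UMIs, of which 52.6% had a Tcrg-C UMI, so cells with both Ncr1 and gamma constant RNA were not among the members. Trdc itself was not particular to the members, since 9.51% to 22.7% of NK cells had a Trdc UMI and at most 0.280% of macrophages did.

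Levels of the single constant genes, with the uncertainty given above, varied between the libraries. Tcrg-C1 stood at 119, 88.8, 66.4 and 242 CPM, Tcrg-C2 at 134, 131, 83.0 and 156 CPM and Tcrg-C4 at 109, 209, 74.7 and 172 CPM, while Tcrg-C3 had 2 UMIs in all members together. A159V IgG was the lowest library for each of Tcrg-C1, Tcrg-C2 and Tcrg-C4. Reads at the 3′ end seldom reach a variable segment, so these were sparse. Tcrg-V6 had 7, 1, 0 and 8 UMIs and its partner Trdv4 had 13, 0, 0 and 24, both absent from the members of A159V IgG at this depth. Tcrg-V6 was not absent from that library, since CD8 T cells held it at 0.485, 0.836, 11.6 and 0.602 CPM. Tcrg-V1 had 4, 2, 4 and 4 UMIs and Tcrg-V4 had 2, 1, 1 and 4, in every library. Trdv4 was in 8, 0, 0 and 12 members, and also in 10.96% to 17.4% of NK cells, so a Trdv4 UMI alone did not mark a gamma-delta cell.

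The members were then divided by their effector genes. A member was called IL-17-type with at least 2 UMIs over 9 genes of the IL-17 branch, among them Il17a, Il17f, Il23r, Ccr6, Cd163l1, 5830411N06Rik, Sox13 and Blk, and cytotoxic-type with at least 2 over Gzma, Gzmb, Prf1, Ifng, Eomes, Tbx21, Klrd1, Klrk1 and Cd160. Of the 179 members 34 were IL-17-type, 131 cytotoxic-type, 7 both and 21 neither. These are ranges of a score and not separate cell types. The cut held 3 members at exactly 2 UMIs and 4 at 1 UMI of the IL-17 genes, and 20 at 2 and 15 at 1 of the cytotoxic genes. The IL-17-type members had a median of 7.5 UMIs of the IL-17 genes and 0 of the cytotoxic genes. The other 145 members had medians of 0 and 5. In the other classes 0% to 3.04% of cells were IL-17-type, and 82.6% to 92.8% of CD8 T cells and 96.3% to 97.3% of NK cells were cytotoxic-type. IL-17-type cells numbered 6, 10, 5 and 13 among cells of the same gate with 0 Trdc UMIs and 7, 2, 5 and 4 among CD8 T cells.

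**Figure D2:**
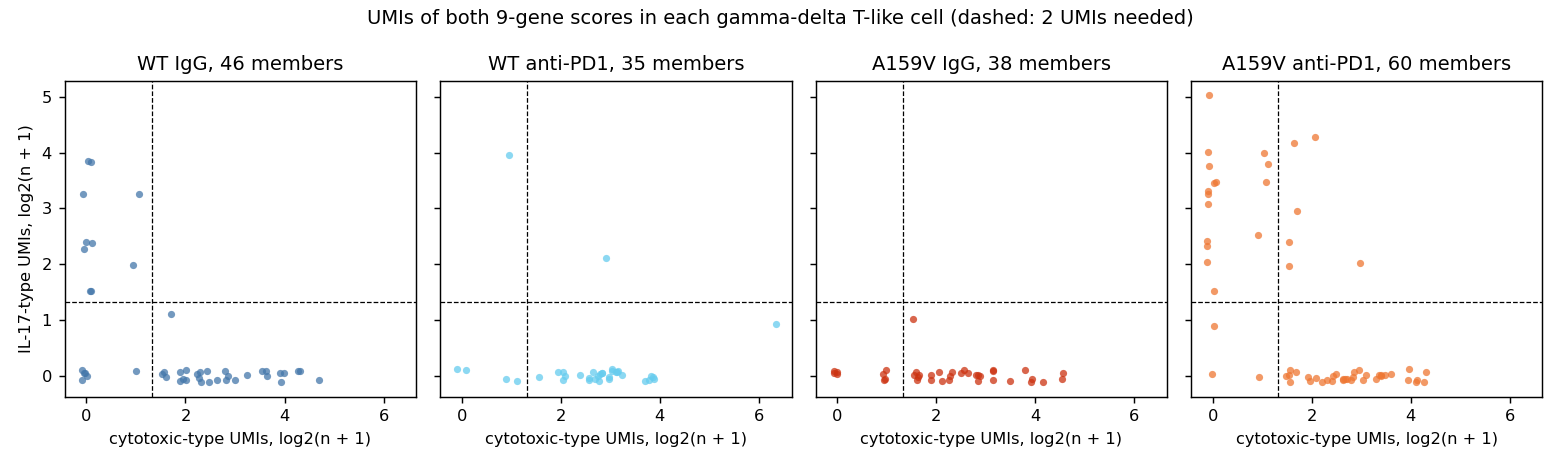
Each point is 1 of the 179 members, placed by its summed UMIs of the 9 cytotoxic-type genes (x axis, log2 of UMIs + 1) and of the 9 IL-17-type genes (y axis, log2 of UMIs + 1), with a panel for each library; points are spread slightly so that equal values can be seen. The dashed lines lie between 1 and 2 UMIs. IL-17-type members number 10, 2, 0 and 22, and 7 members lie past both lines.

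IL-17-type members made up 10 of 46 members in WT IgG (21.7%, exact 95% interval 10.9 to 36.4). WT anti-PD1 had 2 of 35 (5.71%, 0.700 to 19.2) and A159V anti-PD1 22 of 60 (36.7%, 24.6 to 50.1), while A159V IgG had 0 of 38. The exact interval of 0 of 38 reached 9.25%, and a floor of 3 counts is 7.89%. A159V IgG did hold IL-17-type cells outside the gate, 5 of 407 cells with 0 Trdc UMIs and 5 of 224 CD8 T cells. The interval of A159V anti-PD1 lay above those of WT anti-PD1 and A159V IgG and overlapped that of WT IgG. Thinning to 1500 UMIs kept only the 41, 34, 31 and 53 members with at least that depth, and the shares were 14.6%, 5.88%, 0% and 32.1%. With members that held a Tcrg-C UMI alone they were 20.6%, 7.69%, 0% and 38.1%. All 34 IL-17-type members remained when the 15 predicted doublets were removed. Cytotoxic-type members made up 30, 30, 30 and 41 cells, which was 65.2% (49.8 to 78.6), 85.7% (69.7 to 95.2), 78.9% (62.7 to 90.4) and 68.3% (55.0 to 79.7). These 4 intervals overlapped. After thinning to 1500 UMIs the cytotoxic-type shares were 61.0%, 64.7%, 58.1% and 50.9%.

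Among the score genes Il23r, the receptor for the IL-23 that sustains IL-17 cells, was in 7, 1, 0 and 17 members, and Cd163l1 (SCART1, a scavenger receptor of IL-17-type gamma-delta cells) in 9, 2, 1 and 20. The levels of Il23r were 59.7, 26.1, 0 and 307 CPM. Those of Cd163l1 were 164, 47.0, 8.30 and 442 CPM. In macrophages 0% to 0.105% of cells had Il23r and 0.187% to 0.653% had Cd163l1. Il17a, the cytokine itself, had 8, 0, 0 and 10 UMIs. Il17f was at 0 in the IL-17-type members.

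The IL-17-type members also shared genes that the score did not use. They were compared with the other 145 members as a description, since the score chose them, and their median depth was lower (2157 against 2913 UMIs). Tcrg-V6 was in 14 of 34 IL-17-type members and 0 of 145 others, and Trdv4 in 18 and 2. All 10 members with both segments were IL-17-type. Zbtb16 was in 23 of 34 and 6 of 145, Maf, a transcription factor of IL-17 cells, in 26 and 15, and Rora in 27 and 35. The IL-1 receptor gene Il1r1 was in 25 and 4, the IL-7 receptor gene Il7r in 30 and 48 and the costimulator gene Icos in 24 and 19. Among the migration receptors Ccr2 was in 25 and 20 and Cxcr6 in 22 and 17. Pdcd1, which encodes PD-1, was in 14 of 34 and 6 of 145. Serpinb1a was in 18 and 1 and Tcrg-C1 in 20 and 41.

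The other members carried the opposite set. Ly6c2, a surface protein of memory T cells, was in 1 of 34 IL-17-type members and 116 of 145 others. The naive and memory T cell factors Tcf7 and Lef1 were in 8 of 34 members each against 85 and 77. Genes of cytotoxic lymphocytes were also on this side, with Nkg7 in 3 and 97, Ccl5 in 1 and 101, Xcl1 in 0 and 66, Fcer1g in 1 and 74 and Klrb1c in 0 and 43. Tcrg-C2 was in 6 of 34 and 54 of 145, and Tcrg-C4 in 11 and 51. Of the 43 members with Klrb1c 40 were cytotoxic-type. Members with Tcrg-V1 (10) and Tcrg-V4 (8) held 0 IL-17-type cells, and 9 and 7 of them were cytotoxic-type.

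**Figure D3:**
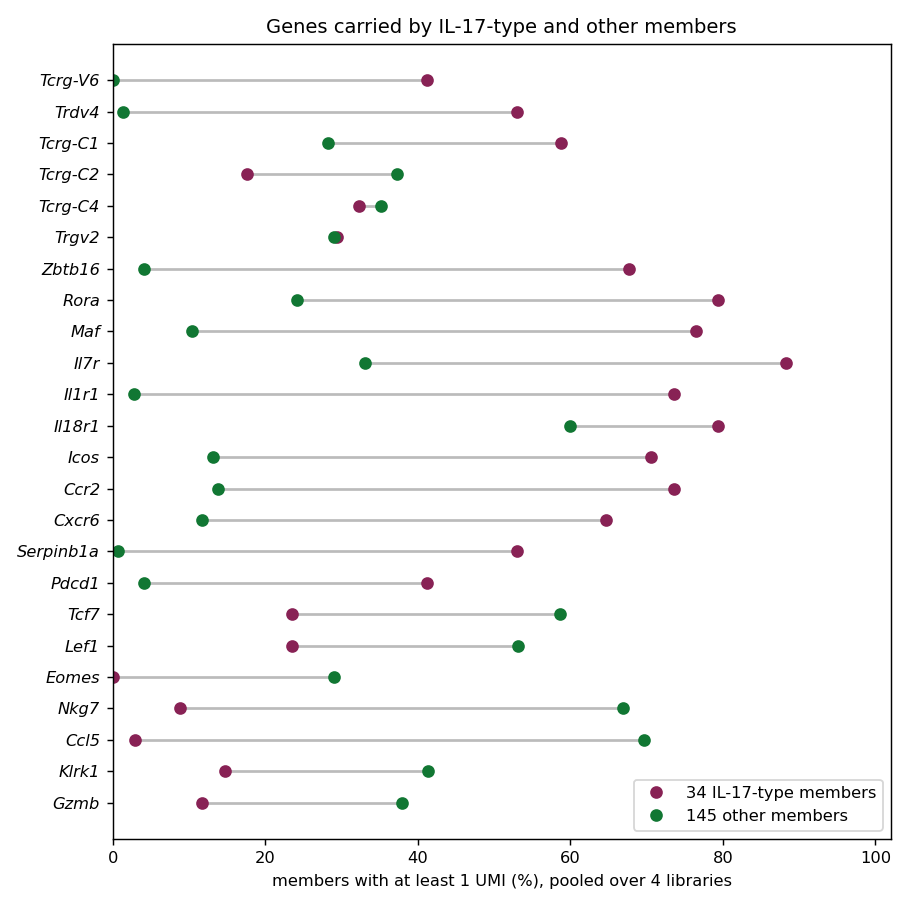
Share of members (%, x axis) with at least 1 UMI of each gene (y axis), for the 34 IL-17-type members and the 145 other members; no error is drawn, since the score that split the cells was read from the same cells. Tcrg-V6, Trdv4, Zbtb16, Maf and Il1r1 lie on the IL-17-type side and Nkg7, Ccl5, Tcf7 and Lef1 on the other; Eomes, Klrk1 and Gzmb belong to the cytotoxic-type score.

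Members were next set against CD8 T cells (1525 cells), conventional CD4 T cells without Foxp3 UMIs (449 cells) and NK cells (894 cells) of the same libraries. UMIs were summed per library and class, and 9341 genes were tested with edgeR's quasi-likelihood test with the library as a block and Benjamini-Hochberg adjustment at 0.05. The 4 libraries, each of a different group, served as the replicates, so p-values measured the spread of the class difference over these libraries, which may be technical. The genes of the gates were left out of the tests. The 16 sums were fitted together, and fold changes are on the log2 scale.

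Against CD8 T cells 148 genes were higher in members (1.58% of those tested) and 163 lower (1.74%). Higher in members were gamma constant genes, Zbtb16 (PLZF) and 5 of 20 NK receptor genes. Lower were Trac, Ifng, 8 of 15 granzyme and cytotoxic genes and 5 of 13 inhibitory receptor genes. The number of calls fell from 311 to 98 without WT IgG and to 111 without A159V anti-PD1, and the genes described below kept their call without any 1 library unless said otherwise.

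Among the receptor genes Trac stood at 14.9, 20.9, 49.8 and 43.1 CPM in members and 559, 516, 470 and 507 in CD8 T cells, without overlap (log2 fold change −4.15 ± 0.32 SE, edgeR adjusted p = 2.8e-06). Tcrg-C4 stood at 109, 209, 74.7 and 172 CPM against 3.39, 6.27, 15.1 and 4.81, again without overlap (4.43 ± 0.49, adjusted p = 0.000102). Tcrg-C1 (4.01 ± 0.68, adjusted p = 0.00297) lost its call without WT IgG (adjusted p = 0.0519) or A159V anti-PD1 (0.0609), and Tcrg-C2 (2.12 ± 0.44) without the same libraries (0.133 and 0.1197). Of 6 alpha-beta lineage genes 5 were lower (median over the list −1.78, against −0.01 over all genes tested). They included Cd5 (−2.12) and Cd6 (−1.99), which restrain receptor signaling, and the costimulator Cd28 (−1.57). The call of Trbc1 was lost without WT IgG (adjusted p = 0.218) or A159V anti-PD1 (0.250). Trbc2 did not pass, at 363, 298, 680 and 216 CPM in members and 775, 529, 669 and 748 in CD8 T cells, which overlapped. Summed alpha-beta genes were at 666, 820, 1137 and 566 CPM in members against 1764 to 2208 in CD8 T cells.

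Zbtb16 had the largest fold among the named genes on the higher side. It stood at 99.5, 52.2, 24.9 and 237 CPM in members and 0.970, 5.02, 0 and 0.602 in CD8 T cells, and A159V IgG was the lowest of the members' libraries, with Zbtb16 UMIs in 1 cell. The fold change was 5.55 ± 0.69 (adjusted p = 0.000348). Klrb1c, which encodes the activating receptor NK1.1, stood at 69.6, 110, 83.0 and 102.4 CPM against 4.36, 15.5, 19.7 and 9.03, without overlap (3.003 ± 0.39, adjusted p = 0.000407). Clnk, an adaptor of immunoreceptor signaling, averaged 299 ± 154 CPM (SD, n = 4) against 40.1 ± 39.7 (3.14 ± 0.46, adjusted p = 0.00097). Ramp1, a subunit of the receptor for the neuropeptide CGRP, stood at 39.8, 57.4, 66.4 and 91.6 CPM against 9.21, 7.94, 11.6 and 3.61 (2.97 ± 0.44, adjusted p = 0.001). Rab27b, a GTPase of granule release, was 3.84 ± 0.61 higher (adjusted p = 0.00175). It had few counts, at 19.9, 41.8, 8.30 and 16.2 CPM in members against 0.485, 1.67, 3.47 and 1.20. The A159V IgG value lay below the floor of 3 counts in that library (24.9 CPM).

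Other named genes on the higher side did not keep their call. Slc35f3 (3.87) lost it without WT IgG (adjusted p = 0.173) or A159V IgG (0.090), Auts2 (3.29) without WT IgG (0.0599) or A159V anti-PD1 (0.148) and Car2 (2.69) without A159V IgG (0.108). Klri1 (2.99), an NK receptor, lost it when any single library was left out (0.0802 to 0.231). Il1r1 (2.65 ± 0.69, adjusted p = 0.0434) lost it without WT IgG (adjusted p = 0.198), A159V IgG (0.0719) or A159V anti-PD1 (0.239). Of 26 genes of the IL-17 program 12 had counts enough to be tested, and 3 were higher (Ramp1, Il1r1 and Serpinb1a). Serpinb1a lost its call without WT IgG (adjusted p = 0.2375), A159V IgG (0.0578) or A159V anti-PD1 (0.434). A gene passed the filter partly through the class where it was high, so this count says nothing of the 14 others. Of 20 NK receptor genes 5 were higher (median 0.80), namely Klrb1c, Klra7, Klrb1a, Klrb1f and Cd7. All but Klrb1c lost their call without WT IgG (Klra7 0.0866, Klrb1a 0.148, Klrb1f 0.108, Cd7 0.1701).

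The lower side held effector genes. Ifng, the main cytokine of cytotoxic T cells, stood at 14.9, 5.22, 0 and 16.2 CPM in members and 314, 262, 123 and 314 in CD8 T cells, without overlap (−4.82 ± 0.57, adjusted p = 0.000193). Prf1, the pore protein perforin, stood at 19.9, 52.2, 41.5 and 37.7 CPM against 236, 201, 138 and 382, without overlap (−2.72 ± 0.42, adjusted p = 0.00162). Gzmb stood at 264, 94.0, 506 and 458 CPM against 1198, 1066, 1122 and 1587, also without overlap (−2.28 ± 0.36, adjusted p = 0.00171). Gzmk had 0 UMIs in the 179 members and 499 in CD8 T cells, at least 16.6-fold lower by a floor of 3 counts over the pooled members. Gzmf had 0 and 3737 UMIs, at least 125-fold lower. In all, 8 of 15 granzyme and cytotoxic genes were lower (median −1.25), and Prf1, Gzmb, Gzmk and Gzmf kept their call. The shared killer receptor gene Klrd1 (CD94) did not pass (−0.54 ± 0.21, adjusted p = 0.192) and stood at 418, 496, 730 and 426 CPM against 788, 689, 553 and 795, which overlapped. The chemokine genes Ccl3 (−3.72) and Ccl4 (−2.95) were lower.

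Checkpoint and activation genes were lower too. Of 13 inhibitory receptor genes 5 were lower (median −1.11). Lag3 stood at 9.95, 10.4, 8.30 and 16.2 CPM against 108, 175, 68.3 and 129, without overlap (−3.48 ± 0.52, adjusted p = 0.00118). Ctla4 stood at 9.95, 10.4, 49.8 and 135 CPM against 214, 328, 232 and 278, with the highest member library, A159V anti-PD1, below the lowest CD8 library (−2.51 ± 0.39, adjusted p = 0.00171). Entpd1, the ectonucleotidase CD39, fell by 2.95 on the log2 scale. Pdcd1 (−1.97) lost its call without WT IgG (adjusted p = 0.0599) and Havcr2 (−3.16) without A159V anti-PD1 (0.0771). Among 31 transcription factor genes 6 were higher and 5 lower (median −0.50). Nr4a2 (−2.91) and Irf8 (−1.68), both switched on by receptor signals in T cells, were lower. Tcf7, a factor of naive and memory T cells, averaged 289 ± 118 CPM against 92.9 ± 12.9 (1.49 ± 0.31, adjusted p = 0.0135), and its call was lost without WT IgG (adjusted p = 0.0709) or A159V anti-PD1 (0.0743).

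The remaining named genes on the lower side had few counts in members. Smyd1 had 1 UMI in members and 538 in CD8 T cells, a ratio of 53.8 (95% counting interval 9.62 to 2130). Dlg2 had 1 and 405, a ratio of 40.5. Rgs16, a brake on chemokine receptor signals, was at 6.03 and 181 CPM (−5.03), and lost its call without WT IgG (adjusted p = 0.0509). Gzme and Serpinb9b had 1 UMI each in members and 283 and 277 in CD8 T cells, and both lost their call without WT IgG (0.239 and 0.0599) or A159V anti-PD1 (0.197 and 0.075), Gzme also without A159V IgG (0.0595). Cd28, Gzmb, Irf8 and Dlg2 did not pass when the library block was dropped (0.194, 0.155, 0.0677 and 0.117). Gldc and Ikzf4 had 0 UMIs in members (at least 9.91- and 5.44-fold lower), and their calls were lost without A159V anti-PD1 (0.177 and 0.0522), that of Gldc also without WT IgG (0.137) or A159V IgG (0.091).

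**Figure D4:**
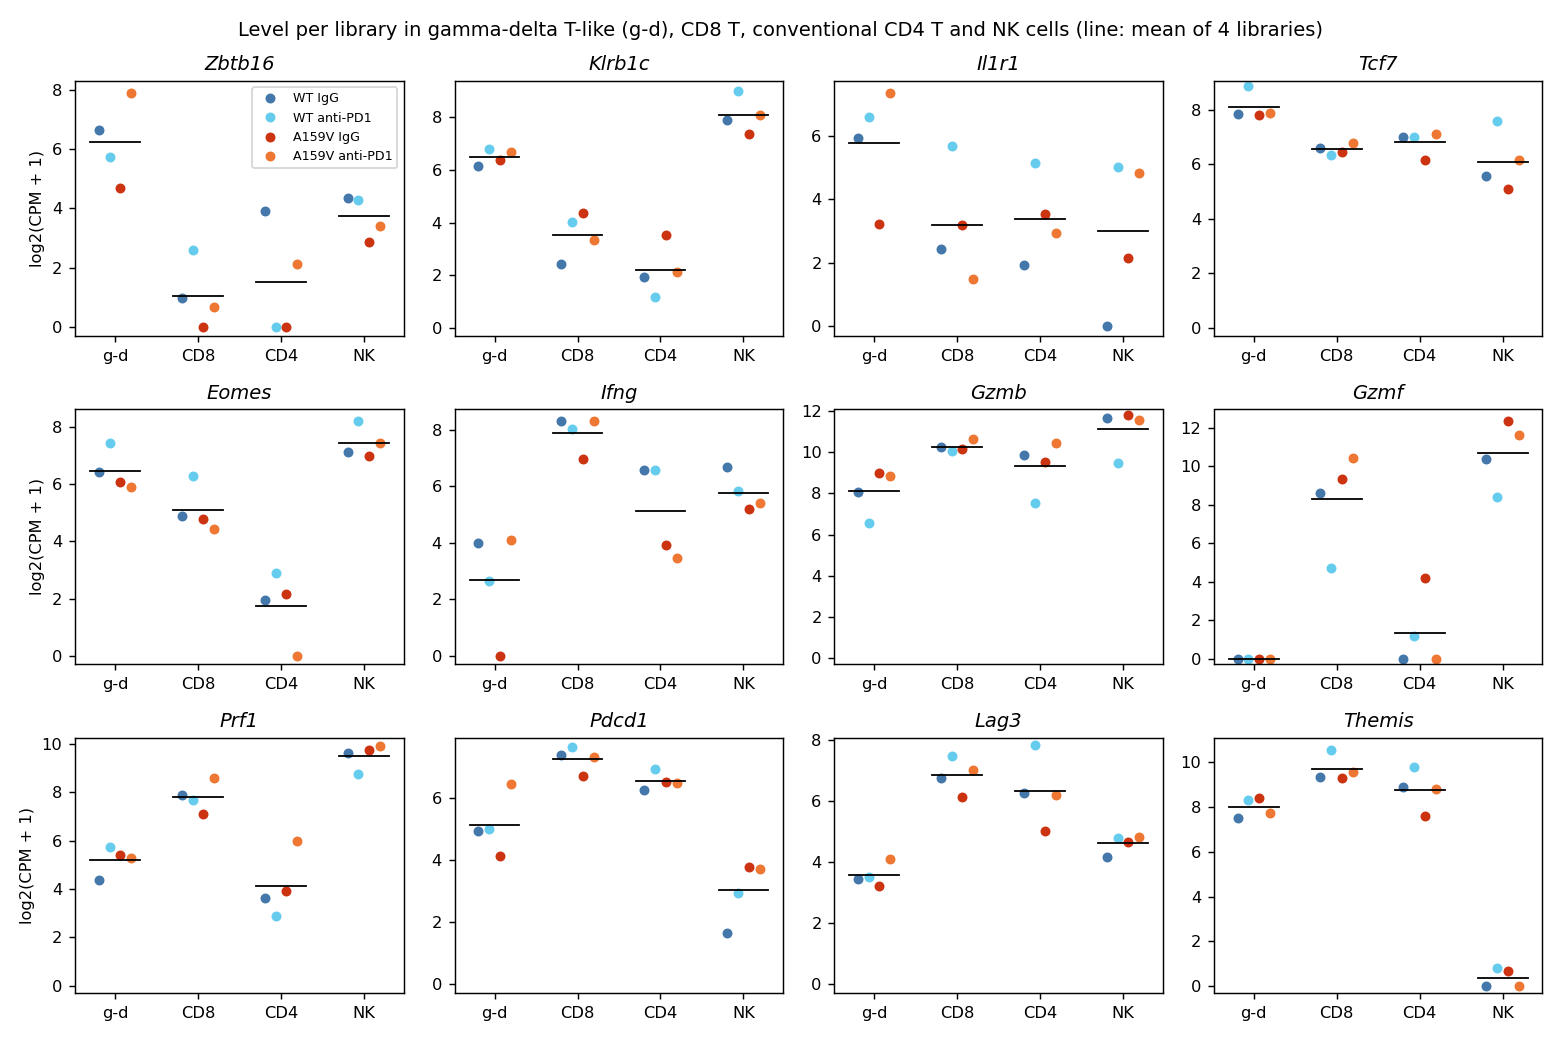
Level of 12 genes (y axis, log2 of CPM + 1) in members, CD8 T, conventional CD4 T and NK cells (x axis), with a point for each of the 4 libraries and a line at their mean. Ifng, Gzmb, Prf1 and Lag3 are lower in members than in CD8 T cells in all 4 libraries, and Zbtb16 and Klrb1c are higher.

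Against conventional CD4 T cells 234 genes were higher in members (2.51% of those tested) and 372 lower (3.98%). Higher in members were the gamma constant genes and 13 of 20 NK receptor genes. Lower were 7 of 12 cytokine, 7 of 14 costimulatory and 5 of 6 regulatory T cell genes. Without any 1 library 9 of the 13 NK receptor and 4 of the 7 cytokine calls were kept. The 7 costimulatory and 5 regulatory T cell calls were all kept. The 606 calls became 381 without WT IgG and 400 without WT anti-PD1.

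The 20 NK receptor genes had a median of 2.90. Klrd1 stood at 418, 496, 730 and 426 CPM in members and 62.4, 70.0, 91.2 and 89.6 in CD4 T cells, without overlap (2.67 ± 0.24, edgeR adjusted p = 4.4e-06). Klre1 (4.62), Klra1 (4.93) and Klrb1c (4.72) differed more. Of 24 genes of the interferon gamma program 11 were higher (median 0.98), of which 10 kept their call without any 1 library. The 2 lower genes were Ifng and Gzmb. Ifng averaged 9.08 ± 7.78 CPM (SD, n = 4) against 52.9 ± 47.3 (−2.61 ± 0.71, adjusted p = 0.0364), and lost its call without WT IgG (0.173), WT anti-PD1 (0.238) or A159V IgG (0.0699). Gzmb averaged 330.5 ± 189 CPM against 804 ± 494 (−1.26 ± 0.35, adjusted p = 0.0415), and lost its call without WT IgG (0.199) or A159V anti-PD1 (0.175). Cd160, a receptor of innate-like killer cells, had 0 UMIs in CD4 T cells and was at least 35.4-fold higher by a floor of 3 counts. Klrg1, an inhibitory receptor, was lower (−4.79). Eomes, a factor of cytotoxic lymphocytes, stood at 84.5, 172, 66.4 and 59.3 CPM against 2.83, 6.36, 3.51 and 0 (4.74 ± 0.41, adjusted p = 2.1e-06). Clnk (6.06), Auts2 (4.996), the adhesion receptor gene Adgrg5 (4.90), Zbtb16 (4.75) and Xcl1 (3.62) were also higher. Ifngas1 and Wdr95 had 1 UMI each in CD4 T cells (ratios of 123 and 44.5), and the call of Wdr95 was lost without WT anti-PD1 (adjusted p = 0.0771).

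The 12 cytokine genes had a median of −2.48, and those lower in members than in CD4 T cells included Il10 (−4.81), Areg (−5.48), Cd40lg (−5.21) and Il13, which had 0 UMIs in members (at least 33.1-fold lower). Il13 did not pass with DESeq2 (adjusted p = 0.463). The lower costimulatory genes included Icos (−2.51) and Tnfrsf4 (−4.08). The 6 regulatory T cell genes had a median of −3.72, and the lower ones included Ctla4 (−3.94), Il2ra (−3.51) and Ccr8 (−4.96). The CD4 class was gated on 0 Foxp3 UMIs, and its Il2ra and Ctla4 stood at 572 ± 222 and 729 ± 143 CPM (SD, n = 4), so it held cells with these genes. Maf was lower (−2.15 ± 0.41, adjusted p = 0.00337), although 26 of 34 IL-17-type members had it. Of the other named genes Penk, Slc17a6, Ikzf4, Tbc1d30, Ebi3 and Dusp14 had 0 UMIs in members and were at least 27.4-, 23.6-, 8.91-, 8.91-, 8.10- and 8.77-fold lower. Dusp14 lost its call when any single library was left out (adjusted p = 0.0504 to 0.0954) and Slc17a6 without A159V anti-PD1 (adjusted p = 0.0538). Neb, Pparg and Dgki had 1 UMI each in members and 167, 165 and 182 in CD4 T cells, and Dgki lost its call without WT anti-PD1 (0.0734).

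Against NK cells 423 genes were higher in members (4.53% of those tested) and 367 lower (3.93%). Genes of T cell identity were higher and granzymes were lower. Members were gated on CD3 UMIs and NK cells on their absence, and the part of this in the T cell genes was not tested. The 790 calls became 365 without WT IgG, 414 without A159V IgG and 350 without A159V anti-PD1.

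Among T cell genes Bcl11b, which fixes T cell identity, stood at 214, 360, 133 and 415 CPM in members and 0, 16.1, 0.579 and 4.84 in NK cells, without overlap (5.59 ± 0.39, edgeR adjusted p = 1.3e-07). Themis, needed for T cell selection in the thymus, had 176 UMIs in members and 2 in NK cells, a ratio of 663 (181 to 5521). Cd6 had 0 UMIs in NK cells (at least 62.8-fold higher), and Btla (2 UMIs in NK cells) and Dapl1 (1) had ratios of 90.5 and 128. Plcg1, the phospholipase of receptor signaling, was 5.14 ± 0.46 higher, and Fam169b (6.42), BE692007 (5.25) and Nsg2 (5.07) were also higher. Slc35f3 (4.66) lost its call without WT IgG (adjusted p = 0.109) or A159V IgG (0.0574). Il7r, the survival receptor, stood at 249, 313, 224 and 404 CPM against 19.2, 39.6, 24.3 and 9.69 (3.49 ± 0.35, adjusted p = 5.0e-06). The factors Ikzf2 (2.503), Lef1 (0.97) and Tcf7 (1.77) were higher, and Irf8 (−3.72), Id2 (−1.58) and Eomes (−1.09) were lower, Eomes not passing when the library block was dropped (adjusted p = 0.249). Of 11 type I interferon-stimulated genes 7 were higher (median 1.05), of which 5 kept their call without any 1 library. Ifit3 stood at 303, 10.4, 448 and 210 CPM against 39.5, 3.66, 45.7 and 23.4 and was higher in each library, while WT anti-PD1 was low in both classes (2.87 ± 0.28, adjusted p = 3.3e-06, and 0.123 without the library block).

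Of 15 granzyme and cytotoxic genes 11 were lower in members than in NK cells (median −3.97), of which 10 kept their call without any 1 library. Gzmb stood at 264, 94.0, 506 and 458 CPM against 3229, 706, 3583 and 3050, without overlap (−3.15 ± 0.36, adjusted p = 2.0e-05). Prf1 (−4.48) and Gzma (−6.18) were lower. Gzmf had 0 UMIs in members and 14517 in NK cells (at least 642-fold lower), Gzme had 1, Gzmd 2 and Gzmg 2. Of 20 NK receptor genes 13 were lower and 2 higher (median −1.75), of which 10 and 1 kept their call without any 1 library. Klrb1c was lower in members (−1.75 ± 0.30, adjusted p = 0.00115) at 69.6, 110, 83.0 and 102.4 CPM against 239, 504, 163 and 267. NK cells were gated on Ncr1 and the members on its absence, and the part of this in these receptor genes was not tested. The remaining named genes were Serpinb9b, with 1 UMI in members and 850 in NK cells, and D5Ertd615e, Khdc1a, Dnm3, Fcrl6 and Tmsb15a with 0 UMIs (at least 19.6-, 8.40-, 7.07-, 6.63- and 5.84-fold lower). Dnm3 and Tmsb15a lost their calls without WT IgG (0.0852 and 0.0667), A159V IgG (0.0973 and 0.104) or A159V anti-PD1 (0.117 and 0.0749).

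The abundance of members was taken as a share of CD3-positive barcodes without C1qa or Hmga2 UMIs. WT IgG had 46 of 1061 (4.34%, exact 95% interval 3.19 to 5.74) and WT anti-PD1 35 of 1326 (2.64%, 1.84 to 3.65). The A159V tumors had 38 of 854 with IgG (4.45%, 3.17 to 6.06) and 60 of 1183 with anti-PD1 (5.07%, 3.89 to 6.48). WT anti-PD1 was the lowest library, and its interval overlapped those of both IgG libraries and lay below that of A159V anti-PD1. Under IgG the A159V share was 1.03 times that in WT (0.674 to 1.56), and in A159V the anti-PD1 share was 1.14 times that under IgG (0.767 to 1.70). The fold of WT anti-PD1 over WT IgG was 0.609 (0.395 to 0.938). It moved to 0.407 (0.234 to 0.708) when barcodes with at least 1500 UMIs were thinned to 1500 and the others left out. The interval of the fold included 1 with all barcodes as the denominator (0.811, 0.523 to 1.26) and with at least 2 Trdc UMIs (0.622, 0.382 to 1.01). It also did with predicted doublets removed (0.659, 0.420 to 1.03) and among CD3-positive cells without CD8, CD4, Foxp3 or Ncr1 UMIs (0.793, 0.523 to 1.20). Of all barcodes the members were 0.631%, 0.512%, 0.467% and 0.676%.

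**Figure D5:**
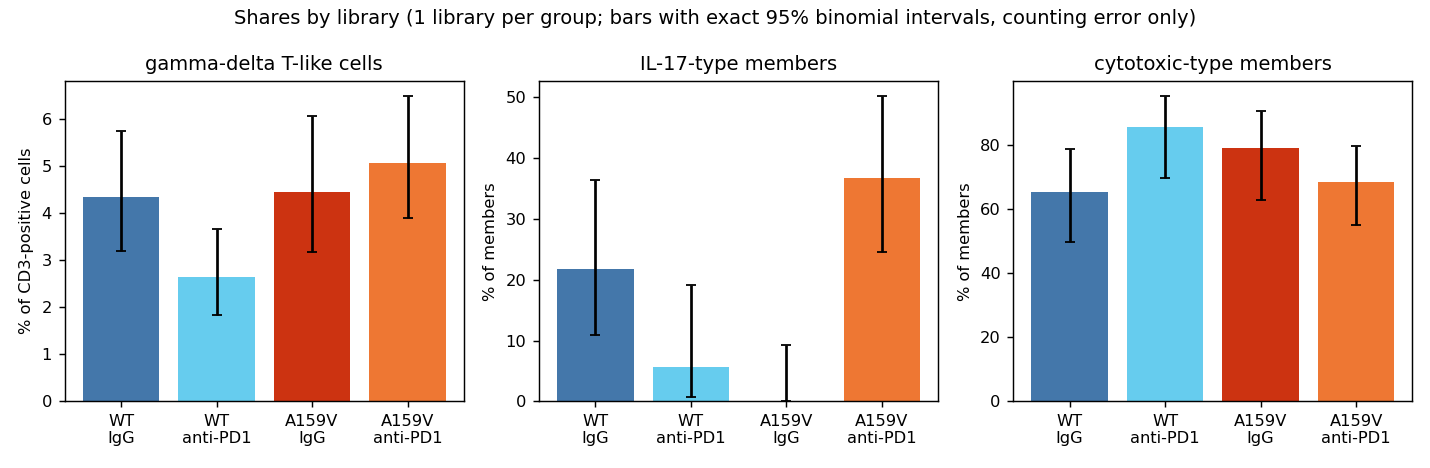
Members as a share of CD3-positive cells, and IL-17-type and cytotoxic-type cells as a share of members (%, y axes), in each of the 4 libraries (x axis), with bars from 0 and exact 95% intervals. The share of IL-17-type cells runs from 0% in A159V IgG to 36.7% in A159V anti-PD1, while the members' share of CD3-positive cells runs from 2.64% to 5.07%.

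The members' profiles were then compared between groups by their summed UMIs, with 1 library in each group and so without a test. A gene with at least 30 UMIs over both libraries was taken as past the fold when CPM + 10 differed more than 2-fold, and ratios carry exact counting intervals. Of 2184 such genes 59 were past it as higher in A159V IgG when set against WT IgG (2.7%) and 120 as lower (5.49%). In WT anti-PD1 over WT IgG 307 of 2755 were higher (11.1%) and 313 lower (11.4%). In A159V anti-PD1 over A159V IgG 213 of 2135 were higher (9.98%) and 89 lower (4.17%). CD8 T cells, with more cells, passed the fold for 19 and 7 of 2181, 181 and 174 of 2748, and 16 and 14 of 2124 of the same genes. A few cells carried many of the members' values, so cell counts are given beside them. A gene could reach 30 UMIs through the library where it was high, so counts over lists of genes below are descriptions.

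Between A159V anti-PD1 and A159V IgG the 5 named genes on the higher side included genes of the IL-17-type score. Il23r was in 17 of 60 and 0 of 38 members (at least 12.3-fold higher in CPM), Adam12 in 15 and 0 (at least 11.04-fold), Blk in 16 and 0 (at least 8.44-fold), Nr4a3 in 9 and 0 (at least 6.93-fold) and Cd163l1 in 20 and 1 (ratio 53.2, 9.29 to 2129). Il23r, Blk and Cd163l1 are genes of the score, whereas 4 of the 9 cells with Nr4a3 were IL-17-type and 1 cell gave 46.9% of its UMIs. Of 11 IL-17 program genes with enough UMIs 9 were past the fold as higher (median log2 ratio 2.65, against 0.12 over all genes compared). Outside the score Il1r1 was in 18 and 1 members, Maf in 20 and 2, Rora in 29 and 10, Zbtb16 in 19 and 1 (ratio 9.52, 3.05 to 47.9), Tcrg-C1 in 25 and 7 and Cxcr6 in 19 and 3. Zbtb16 was at 0 and 0.602 CPM in CD8 T cells of these libraries. Macrophage genes moved with this comparison (266 CPM in members of A159V IgG and 1229 in A159V anti-PD1). Of macrophages 65.8% to 82.3% had Maf but at most 0.105% had Il23r, and their part in Maf was not tested. On the lower side were Klra7, an NK receptor gene, in 4 and 7 members (ratio 0.1998, 0.0782 to 0.454), and Stmn1, a gene of dividing cells, in 6 and 10 (0.237, 0.140 to 0.388). Xcl1 was in 13 of 60 and 23 of 38. Gzmc, Ccn1 and Cited2 were also lower, but 77.5%, 75.6% and 87.5% of their A159V IgG UMIs came from a single cell. Of 10 glycolysis genes 4 were lower (median −0.83).

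Between A159V IgG and WT IgG, Cd163l1 was in 1 of 38 and 9 of 46 members (ratio 0.0506, 0.00124 to 0.302). Tnfrsf9, the costimulator 4-1BB, was in 13 and 5 members (7.51, 3.43 to 18.7), and its log2 ratio in CD8 T cells was −0.07. Klra1 was in 7 and 3 members (7.63, 3.31 to 20.5). Of 12 interferon gamma program genes 3 were higher (Xcl1, Klrk1 and Il2rb), and of 10 immediate early and heat shock genes 7 were lower (median log2 ratio −1.43, against −0.04 over all genes compared). Fos was among these, and 76 of its 149 UMIs in WT IgG were in 1 cell. With each member thinned to at most 3000 UMIs its log2 ratio went from −1.63 to 0.04. Macrophage genes moved with this list (587 CPM in members of WT IgG and 266 in A159V IgG), and macrophages held Fos, Junb and Dusp1 at means of 1334, 1835 and 1875 CPM. Their part in these values was not tested. Of the other named genes Ccn1, Gzmc and Cited2 (75.6%, 77.5% and 87.5% of the UMIs from a single cell) were higher, and Mt1 (78.6%), Avpi1 (70.0%), Rorb (64.1%) and Hes1 (48.7%) were lower.

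Between WT anti-PD1 and WT IgG the members' interferon-stimulated genes were lower. Ifi27l2a was in 8 of 35 and 32 of 46 members (ratio 0.0439, 0.0224 to 0.0779), Ifit3 in 2 and 25 (0.0344, 0.00408 to 0.1298), Isg15 in 5 and 26 and Cxcl10, a chemokine induced by interferon, in 2 and 15 (0.0189, 0.00226 to 0.0700). Of 9 type I interferon-stimulated genes 8 were past the fold as lower (median −2.53, against 0.13 over all genes compared). CD8 T cells of the same libraries moved the same way for Ifi27l2a (log2 ratio −2.07 against −4.31 in members), Ifit3 (−2.38 against −3.94), Isg15 (−2.73 against −1.72) and Cxcl10 (−2.86 against −4.78). In A159V the fold of anti-PD1 over IgG was past the threshold as lower for 6 of 9 of these genes (median −1.06), with Ifi27l2a in 23 of 60 and 31 of 38 members. In the WT pair macrophage genes were also lower in members (587 CPM with IgG and 162 with anti-PD1), as were 7 of 11 immediate early and heat shock genes (median −1.62). Macrophages held Ifit3 at 363 CPM in WT IgG and 29.3 in WT anti-PD1, and their part in the members' values was not tested.

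The higher side of WT anti-PD1 included genes of other cells, but also genes of lymphocytes. Of 18 interferon gamma program genes compared 3 were higher (Fasl, Tbx21 and Gzma) and 4 lower (Xcl1, Ccl5, Gzmb and Ly6c2). All 5 fibroblast genes compared were higher in members (median 6.54), and Col3a1 had log2 ratios of 6.54 in members and 6.57 in CD8 T cells. The 5 named genes Rarres2, Cxcl9, Tnc, Col5a3 and Car4 took 89.6% to 99.4% of their UMIs from 1 cell. In this library the deepest member held fibroblast genes at 30601 CPM, against 4627 CPM in the other members, so these genes were present in the rest as well. Their part in the other differences of the library was not tested. Of the named genes on the lower side Hist1h2ap, S100a4 and Rorb took 91.7%, 66.1% and 64.1% of their UMIs from 1 cell of WT IgG.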

How the data were processed

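Single-cell 3′ RNA of 4 tumors' libraries was read from the deposited matrices of UMI counts per gene and barcode (32285 genes, mm10), which the authors made with Cell Ranger, with intron reads included per the study's methods. The file headers give version 7.2.0 and the submitters' processing notes 5.0.1. The deposited counts precede the authors' steps against ambient RNA and doublets, so both remain here. Of 40 repeated gene symbols the first entry was used. The members, classes and gene lists (32 lists, 341 of 342 genes present) were chosen with earlier results of these data known. A few list genes, including 1 of the 9 genes of the IL-17-type score, are not reported here.

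CD8 T cells had at least 1 UMI of CD3 genes and of Cd8a or Cd8b1 with 0 of Cd4, Foxp3, Ncr1, C1qa and Hmga2. Conventional CD4 T cells had CD3 and Cd4 with 0 of Cd8a, Cd8b1, Foxp3 and Ncr1. NK cells had Ncr1 with 0 of CD3, CD8, Cd4 and Foxp3. Macrophages had at least 3 UMIs of C1qa, C1qb and C1qc with 0 of CD3 and Ncr1. Doublets were predicted by comparison with simulated ones (2 per cell, 2000 variable genes, 30 components) at 0.8% per 1000 cells and kept unless stated.

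UMIs summed over 4 classes and 4 libraries (16 sums) were tested with edgeR 4.0.16 (TMM scaling, filterByExpr, library as a block, limma 3.58.1, R 4.3.3). Named genes were the 10 with the largest fold on each side of each class comparison and 5 on each side between groups. In class comparisons they also had to pass the threshold, reach a mean of 20 CPM in either class and go the same way in all 4 libraries. Gate genes, receptor and immunoglobulin segments, mitochondrial, ribosomal and hemoglobin genes and unnamed models were left out. Genes over 5 times higher in macrophages, neutrophils, tumor cells or fibroblasts were left out too. List genes were also named by rule. Shares have Clopper-Pearson 95% intervals, folds of shares Katz intervals and ratios of CPM exact conditional ones. Python 3.11.15 with numpy 2.4.6, scipy 1.17.1, pandas 2.3.3 and scikit-learn 1.9.0 was used, and figures were drawn with matplotlib 3.10.9. Coordinates and sequences are from GENCODE vM21 on GRCm38. The tests were checked on simulated counts with known changes. Alternatives were RLE scaling, DESeq2 1.42.0, no filter, no block, each library left out, stricter Trdc, Tcrg-C and gene minimums, doublets removed, thinning, other denominators, score cuts, pseudocounts and UMI minimums.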

Additional observations from a re-analysis of the deposited data

Results flagged for a closer look

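The change from IgG to anti-PD1 went opposite ways in WT and A159V tumors in 3 measures, and with 1 library per group the difference was not tested. The IL-17-type share of members went from 21.7% to 5.71% in WT (−16.0 percentage points) and from 0% to 36.7% in A159V (36.7 points), a gap of 52.7 points. The counting intervals of the WT pair overlapped (10.9 to 36.4 and 0.700 to 19.2). The difference in the cytotoxic-type share was 20.5 points in WT and −10.6 points in A159V, a gap of −31.1 points, and the intervals of all these shares overlapped. With members of at least 1500 UMIs thinned to 1500, and the others left out, the cytotoxic-type shares were 61.0% and 64.7% in WT and 58.1% and 50.9% in A159V. The WT difference was smaller in these thinned members, and the part of depth or of the members left out was not tested. WT anti-PD1 members had the highest median, 4014 UMIs. After the same thinning the IL-17-type shares were 14.6% and 5.88% in WT and 0% and 32.1% in A159V. Members as a share of CD3-positive cells had a fold of 0.609 in WT (0.395 to 0.938) and 1.14 in A159V (0.767 to 1.70), a ratio of 1.87 given without an interval. The interval of the A159V fold included 1, and that of the WT fold did so under some of the alternatives.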

How the results depend on the processing

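The calls against CD8 T, conventional CD4 T and NK cells numbered 311, 606 and 790. They were 782, 1068 and 1321 with no filter on low counts and 96, 303 and 327 with no library block. Leaving out 1 library gave 98 to 316, 381 to 451 and 350 to 1154, with the lowest counts without WT IgG (CD8, CD4) and without A159V anti-PD1 (NK). DESeq2 called 394, 689 and 894. The cytotoxic-type share after thinning to 1500 UMIs moved to 64.7% in WT anti-PD1 and, in the A159V tumors, to 58.1% with IgG and 50.9% with anti-PD1, and to 53.3% in the last with at least 3 UMIs of the score. Genes past 2-fold in A159V IgG over WT IgG went from 179 to 56 with at least 60 UMIs, 107 with predicted doublets removed and 103 with members thinned to at most 3000 UMIs, an alternative chosen after seeing the data. In WT anti-PD1 over WT IgG 620 became 288, 319 and 273, and 382 with at least 2 Trdc UMIs. In A159V anti-PD1 over A159V IgG 302 became 113 with at least 60 UMIs, 184 with at least 2 Trdc UMIs and 200 without doublets. With predicted doublets removed Fos changed sign against CD8 T cells (−0.18), and Atf3 (−0.31), Jun (−0.65), Fos (−0.0749) and Dusp1 (−0.0615) did against NK cells. The cause of these shifts was not tested. Of 132 counts, shares and folds under the alternatives 105 kept their side and size, and of 3708 values of single genes 3114 did, 589 lost their call and 5 reversed.

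No paired analysis between groups was possible because each group has 1 library and the labels give no replicate numbers. The members were few (35 to 60 a library) and shallow, so a gene absent from a library may be present below the limit that a count of 0 allows. A difference between groups cannot be told apart from one between single libraries.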
